A study of Drosophila melanogaster with 34 samples.

Results

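The binding of the ecdysone receptor EcR in pupating flies was compared between 30-33 h and 10-11 h, the hours that the series record gives for animals called white prepupae. All regions of the 2 deposited EcR lists on the arms of chromosomes 2 and 3, on chromosome 4 and on X were taken, which gave 478 regions at 30-33 h and 483 at 10-11 h, together 961 of the 48081 regions that the series holds on these arms. The series maps proteins along the genome of Drosophila melanogaster by chromatin immunoprecipitation and sequencing (ChIP-seq), with 18 lists of bound regions and 16 inputs. At both times the chromatin came from whole y w, VK33 animals carrying EcR fused to GFP, was precipitated with a goat antibody against GFP, and received no treatment. The labels of the 3 inputs of each time name y; bw cn sp animals, at both times, although the extraction protocol takes the input from an aliquot of the ChIP extract. The labels do not say from which promoter the fusion protein was expressed, nor from which event the hours were counted. Since whole animals were used, a region bound in few tissues and a region bound weakly in many cannot be told apart.

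EcR is the nuclear receptor for ecdysone, the steroid hormone that times moulting and metamorphosis in insects. It binds DNA together with its partner Ultraspiracle, at enhancers and promoters of genes that carry the hormone response, among them early genes such as Eip74EF, Eip75B and br that encode transcription factors. Pulses of the hormone follow one another during metamorphosis, and different tissues answer them with different programmes. Hormone-responsive genes often carry several receptor sites spread over introns and flanking DNA.

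Each list pooled 3 ChIP libraries, so every value below comes from 1 observation per time and there is no replicate error. No list gives read counts per region, and the depth behind a region is unknown. The lists were cut from a density track at different count thresholds, 310.4 at 30-33 h and 169.4 at 10-11 h. A region missing from a list may therefore lie below that list's threshold, and absence cannot be told apart from weak binding. The bounds in parentheses after a share are a 95% Wilson interval and express counting error only. Coordinates are on release 5 of the genome and counted from 1. No gene was assigned to any region, since the gene table used here is on another release. Arm 3L held the most regions, 145 at 30-33 h and 133 at 10-11 h, and arm X the fewest of the large arms, 59 at 30-33 h and 71 at 10-11 h, while chromosome 4 had none in either list.

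The 2 lists held regions of nearly the same width. The median was 435 bp at 30-33 h and 435 bp at 10-11 h. The quartiles were 335 and 635 bp at 30-33 h and 235 and 635 bp at 10-11 h. Together the regions covered 264130 bp at 30-33 h and 254505 bp at 10-11 h. Every width was a whole number of 100 bp steps plus 35 bp, and all starts on an arm fell on the same grid within a list, so widths and edges resolve no more than 100 bp. The narrowest class, 135 bp, was smaller at the later time, with 48 regions (10.0%) at 30-33 h against 67 (13.9%) at 10-11 h. Regions over 1000 bp numbered 41 (8.58%) at 30-33 h and 46 (9.52%) at 10-11 h.

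**Figure D1:**
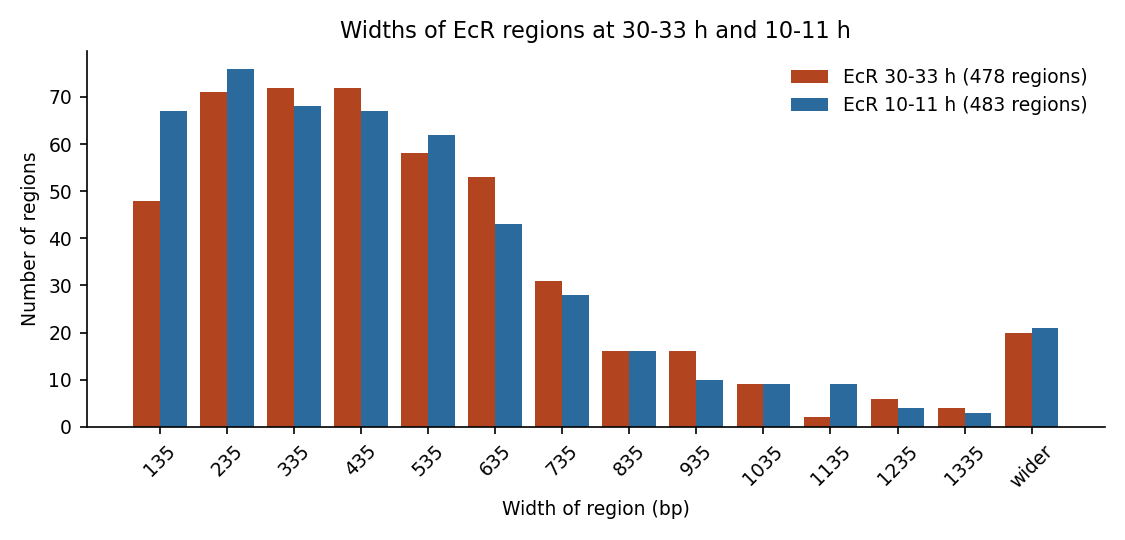
Number of EcR regions (y axis) by width in bp (x axis, steps of 100 bp, the last pair of bars holding all wider regions) at 30-33 h (left bar of each pair) and 10-11 h (right bar). Both lists have their median at 435 bp, and the 135 bp class holds 48 regions at 30-33 h and 67 at 10-11 h.

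Width followed the authors' score closely within each list, with a Spearman rho of 0.90 over 478 regions at 30-33 h and 0.89 over 483 at 10-11 h. Score and width come from the same density track, so these are not separate measures and rho is a description. The scores ran from 8.32 to 11.0 at 30-33 h and from 7.41 to 10.2 at 10-11 h. Their scale is not stated and the thresholds differ, so scores were turned into percentiles of their own list, with 100 for the highest score. At the same standing in the list the widths were alike: the upper 25% by score had a median of 835 bp at 30-33 h and 835 bp at 10-11 h, and the lowest 25% had 235 bp at each time.

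The 3 widest regions at 30-33 h differed in what they met at 10-11 h. The widest, of 7335 bp, 2L 2196514 to 2203848, ranked 8 by score and overlapped 2 separate regions of 10-11 h, one of 4335 bp and rank 7 and the other of 2135 bp and rank 3. The next in width at 30-33 h, X 1843987 to 1847421 with 3435 bp, ranked 12 and likewise overlapped 2 regions at 10-11 h, of 2835 bp and rank 12 and of 735 bp and rank 122. The third, 3L 18070462 to 18073696 with 3235 bp and rank 27, met a narrow counterpart at 10-11 h, which had 135 bp and rank 392.

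About equal parts of each list had a counterpart at the other time. Of the 478 regions at 30-33 h, 53.3% (48.9% to 57.8%) overlapped a region of 10-11 h by at least 1 bp, and of the 483 regions at 10-11 h, 53.0% (48.5% to 57.4%) overlapped a region of 30-33 h. The 259 overlaps included 245 pairs in which each region met 1 other. Among the rest, 4 regions of 30-33 h each met 2 regions of 10-11 h, and 3 regions of 10-11 h each met 2 of 30-33 h. Most regions without a counterpart were not near misses. Of the 223 such regions at 30-33 h, 18 (8.07%) lay within 1000 bp of a region of the other list, and of the 227 at 10-11 h, 17 (7.49%) did. More than 20 kb separated 127 (57.0%) of them at 30-33 h and 136 (59.9%) at 10-11 h from any region of the other list.

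Arm X had the highest share with a counterpart at the later time. There 41 of 59 regions at 30-33 h (69.5%, 56.9% to 79.7%) overlapped the other list, against 41 of 71 at 10-11 h (57.7%, 46.2% to 68.5%). Arm 3R had the lowest, with 48.0% (38.5% to 57.7%) at 30-33 h and 44.0% (35.1% to 53.4%) at 10-11 h. The intervals of the arms overlapped one another within the 30-33 h list, and also within the 10-11 h list.

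Regions of high score were shared most often, and this was more marked in the earlier list. From the lowest to the highest 10% by score, the share with a counterpart went from 29.2% (18.2% to 43.2%) up to 85.4% (72.8% to 92.8%) at 30-33 h. At 10-11 h it went from 12.2% (5.73% to 24.2%) up to 98.0% (89.3% to 99.6%). In the upper 25%, 89 of 120 regions at 30-33 h (74.2%, 65.7% to 81.2%) and 113 of 121 at 10-11 h (93.4%, 87.5% to 96.6%) had a counterpart, and these 2 intervals do not overlap. In the lowest 25% the order was the other way round, with 37.5% (29.4% to 46.4%) at 30-33 h and 21.5% (15.1% to 29.6%) at 10-11 h. In the upper 25%, 31 regions of the late list had no early counterpart, against 8 of the early list with no late one. The higher count threshold belongs to the later list, and its part in this difference was not tested.

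**Figure D2:**
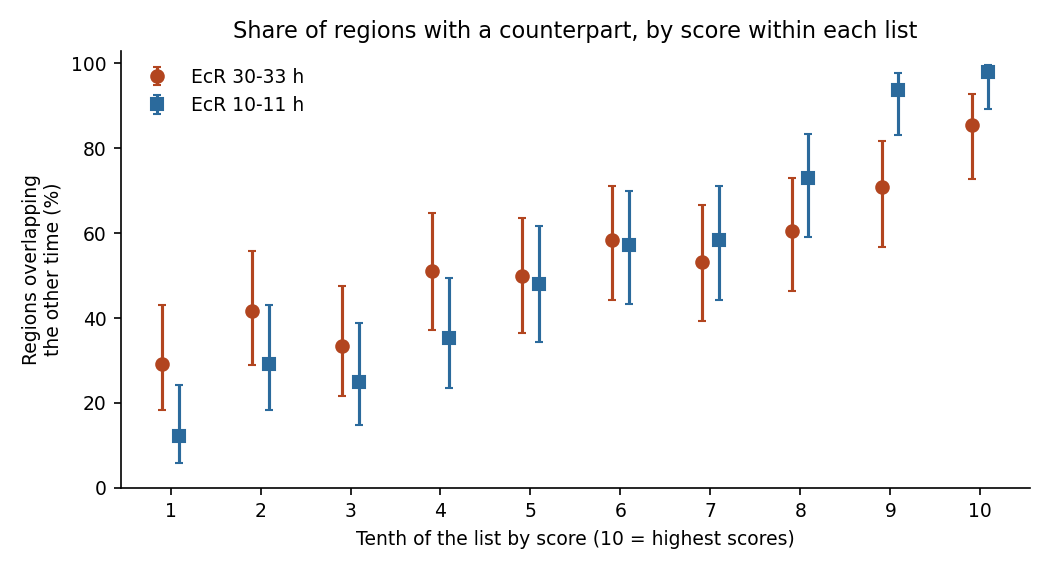
Share of regions that overlap a region of the other time (y axis, %) in each 10% of the list by score (x axis, from lowest to highest) for EcR at 30-33 h (circles) and 10-11 h (squares). Bars are 95% Wilson intervals for counting error; the highest 10% reaches 85.4% at 30-33 h and 98.0% at 10-11 h.

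The strongest regions differed in which of them stood at the top. Of the 50 highest scores at 30-33 h, 43 (86.0%) had a counterpart somewhere in the other list and 24 had one among its 50 highest. Of the 50 highest at 10-11 h, 49 (98.0%) had a counterpart and 24 had one among the 50 highest of 30-33 h. With the 100 highest the matching numbers were 76 and 53 at 30-33 h, against 96 and 53 at 10-11 h.

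The leading region at 30-33 h, 2L 6078614 to 6079548, had rank 1 there and rank 5 at 10-11 h, with 935 bp at each time. The second, 3L 17997562 to 17999996, was 2435 bp wide at 30-33 h and 835 bp at 10-11 h, where it ranked 26. The third, 3L 17957462 to 17958996, kept both width and standing, with 1535 bp and rank 3 at 30-33 h against 1535 bp and rank 4 at 10-11 h. Conversely, the leading region of 10-11 h had rank 39 and 835 bp at 30-33 h, against rank 1 and 2135 bp at 10-11 h, where it spanned 2L 15910641 to 15912775.

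Of the regions found at 1 time only, those of 30-33 h included some of the highest of that list. The region 3L 17979162 to 17980196 had rank 5 at 30-33 h, and the nearest region of 10-11 h was 1112 bp away. The next were 2R 11498312 to 11499046 with rank 29, 2R 2046012 to 2046946 with rank 30, 3L 18074962 to 18075696 with rank 32 and 3L 21876162 to 21877096 with rank 38. All of these lay in clusters of 3 to 23 regions. Among the regions of 10-11 h only, the highest was 3L 5614909 to 5615643 with rank 35, followed by 3R 5711505 to 5712939 with rank 68 and 3L 5620709 to 5621543 with rank 90. The first and the last of these lay in the same cluster of 9, while the one on 3R was isolated, with 72763 bp to the nearest region of 30-33 h. The list closed with 2R 18570449 to 18570983 and 3L 4543809 to 4544343, of rank 93 and 112, both isolated within the 10-11 h list. The nearest region of 30-33 h was 37902 bp away for the one on 2R but only 412 bp away for the one on 3L.

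In the 245 one-to-one pairs the regions overlap by definition, which keeps their midpoints close, while nothing in the choice holds their ranks together. Midpoints lay 48 bp apart in the median, which is within the 100 bp grid, and within 100 bp in 193 pairs (78.8%). They lay at lower coordinates at 30-33 h in 123 pairs and at higher ones in 122. On every arm with regions the starts at 30-33 h and at 10-11 h fell on different 100 bp grids. No pair could therefore have equal midpoints, and these counts cannot show whether binding moved in either direction. Widths had a median difference of 0 bp (30-33 h minus 10-11 h). The region was wider at 30-33 h in 83 pairs, narrower in 118 and of the same width in 44. Differences over 500 bp occurred in 13 pairs in each direction.

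Score percentiles in these pairs had a Spearman rho of 0.47, given as a description over 245 pairs that share a genome and an antibody. The percentile moved by 16.6 points in the median and by no more than 10 in 81 pairs (33.1%). Pairs stood lower at 30-33 h in 147 cases and higher in 98, and their median percentile was 59.7 at 30-33 h and 68.5 at 10-11 h. Both regions lay in the upper 50% of their lists in 120 pairs. In 28 pairs the region was in the upper 50% at 30-33 h and below it at 10-11 h, and in 54 pairs it was below it at 30-33 h and in the upper 50% at 10-11 h.

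Pairs that stood much higher later lay mostly in clusters, and pairs that stood much lower mostly did not. Of the 10 pairs that stood more than 50 points higher at 30-33 h than at 10-11 h, 7 were in clusters of 3 or more at both times and 2 were isolated at both times. Of the 14 pairs that stood more than 50 points lower, 1 was in clusters and 6 were isolated. For comparison, 65 of the 245 pairs were in clusters at both times and 98 were isolated at both times. The rank agreement was 0.38 (rho, 65 pairs) in clusters and 0.53 (98 pairs) where both regions were isolated.

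The largest upward difference was at X 1869787 to 1870621, at percentile 93.3 with 835 bp at 30-33 h against percentile 11.4 with 135 bp at 10-11 h. It was followed by 3R 9632903 to 9633637, at 93.7 with 735 bp at 30-33 h against 17.4 with 135 bp at 10-11 h. These regions were in the upper 10% of the later list and in the lowest 25% of the earlier one. The other large upward differences were 3L 18070462 to 18073696 (percentile 94.5 at 30-33 h against 18.9 at 10-11 h), 2L 19161414 to 19161948 (74.8 at 30-33 h against 0.622 at 10-11 h) and 2L 19157914 to 19159248 (84.3 at 30-33 h against 11.0 at 10-11 h). The last 2 lie in the same cluster on 2L, which held 6 regions at 30-33 h and 4 at 10-11 h. In all 5 pairs the 10-11 h region scored from 7.43 to 7.53, near the lowest score of that list, 7.41.

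The largest downward difference was at 3L 16632262 to 16632396, at percentile 5.24 with 135 bp at 30-33 h against 81.7 with 635 bp at 10-11 h. At 2L 9211014 to 9211148 the width was 135 bp at 30-33 h against 1335 bp at 10-11 h, and the percentile 11.7 at 30-33 h against 88.2 at 10-11 h. In both pairs the late region lay wholly within the early one. The other large downward differences were 2L 15909114 to 15909348 (percentile 16.4 at 30-33 h against 92.5 at 10-11 h), 2R 5331312 to 5331546 (14.3 at 30-33 h against 87.1 at 10-11 h) and 3R 635703 to 635937 (14.5 at 30-33 h against 86.9 at 10-11 h). In all 5 pairs the 30-33 h region scored from 8.36 to 8.44, near the lowest score of that list, 8.32. The first pair scored 8.36 at 30-33 h and 8.35 at 10-11 h. The part of the 2 thresholds in these rank differences was not tested.

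**Figure D3:**
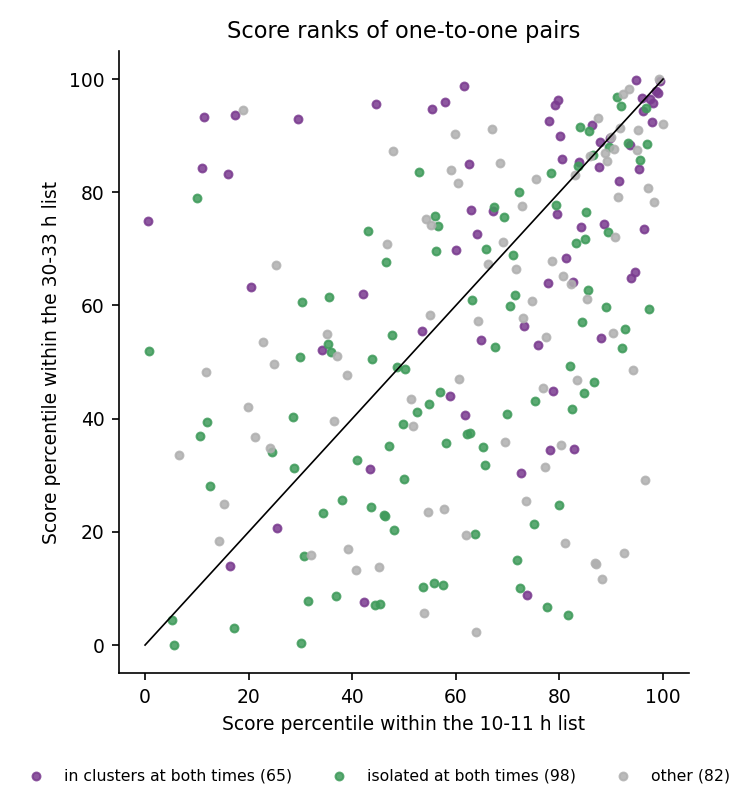
Score percentile within the 30-33 h list (y axis) against that within the 10-11 h list (x axis) for the 245 one-to-one pairs, coloured by whether both regions lay in clusters of 3 or more, both were isolated, or otherwise; the line marks equal percentiles. Of the 10 pairs more than 50 points above the line, 7 were in clusters at both times.

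Regions were next joined into clusters, a cluster being a chain of regions of 1 list in which neighbours lay 20 kb or less apart. There were 35 clusters of 3 or more regions at 30-33 h, holding 171 regions (35.8%, 31.6% to 40.2%), and 30 at 10-11 h, holding 144 (29.8%, 25.9% to 34.0%), and these intervals overlap. Clusters of 5 or more numbered 13 at 30-33 h and 7 at 10-11 h. Regions in pairs made up 14.2% of the list at 30-33 h and 19.5% at 10-11 h, and 239 regions at 30-33 h and 245 at 10-11 h were isolated. The median span of a cluster was 14735 bp at 30-33 h and 15085 bp at 10-11 h, and the median gap between neighbours 2115 bp at 30-33 h and 2515 bp at 10-11 h. With a joining distance of 10 kb the shares in clusters of 3 or more were 25.7% (22.0% to 29.8%) at 30-33 h and 24.0% (20.4% to 28.0%) at 10-11 h.

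Many clusters had a cluster at the other time as well. Of the 35 clusters at 30-33 h, 17 held regions of a 10-11 h cluster in their span, 8 at most those of a pair, 9 at most an isolated region, and 1 held no region of 10-11 h. Of the 30 clusters at 10-11 h, 17 held regions of a 30-33 h cluster, 7 at most those of a pair, 5 at most an isolated region, and 1 held none. Few clusters kept every region. Over the whole lists, 53.3% of regions at 30-33 h and 53.0% at 10-11 h had a counterpart. From these shares alone, few clusters of several regions would keep every one. How many was not computed, and the counts here are descriptions. Every region had a counterpart in 2 of the 35 clusters at 30-33 h and in 4 of the 30 at 10-11 h, and none had one in 2 clusters at each time.

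Regions in clusters were wider and stronger than isolated ones at both times. Their median width was 635 bp at 30-33 h and 535 bp at 10-11 h, and that of isolated regions 435 bp at each time. Their median percentile was 66.2 at 30-33 h and 65.7 at 10-11 h, and that of isolated regions 43.2 at 30-33 h and 44.4 at 10-11 h.

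The share with a counterpart was set against clustering. At 30-33 h the shares were 55.6% (48.1% to 62.8%) in clusters and 49.8% (43.5% to 56.1%) for isolated regions. At 10-11 h they were 63.2% (55.1% to 70.6%) in clusters and 47.8% (41.6% to 54.0%) for isolated regions, and these intervals do not overlap. They do overlap at 10-11 h without the densest segment, 3L 17.9 to 18.1 Mb (61.3%, 52.4% to 69.6%, against 47.5%, 41.4% to 53.8%), with a joining distance of 10 kb (63.8%, 54.7% to 72.0%, against 49.5%, 43.8% to 55.2%) and with sequences off the arms included (59.5%, 51.6% to 66.9%, against 45.6%, 39.7% to 51.7%). They stayed apart at 10-11 h with a joining distance of 50 kb (61.0%, 54.1% to 67.5%, against 45.5%, 38.6% to 52.6%). The same held with overlap of 50% of the smaller region (62.5%, 54.4% to 70.0%, against 47.8%, 41.6% to 54.0%). With only the upper 50% of each list by score they were apart at 10-11 h (58.3% to 79.8% against 35.9% to 52.2%). In that setting they were also apart at 30-33 h (55.4% to 76.3% against 37.1% to 54.0%). Counting a counterpart only with midpoints within 250 bp gave 48.0% (40.6% to 55.4%) in clusters and 47.7% (41.5% to 54.0%) for isolated regions at 30-33 h, and 50.7% (42.6% to 58.7%) and 45.7% (39.6% to 52.0%) at 10-11 h. Whether the margin differs between the times was not tested.

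Strong and weak regions were also looked at separately. Among regions in the lower 50% by score at 30-33 h, 18 of 67 in clusters (26.9%, 17.7% to 38.5%) had a counterpart, against 63 of 135 isolated ones (46.7%, 38.5% to 55.1%), and the intervals just overlap. With a joining distance of 10 kb these shares were 30.6% (19.5% to 44.5%) in clusters and 46.1% (38.4% to 54.0%) for isolated regions. With 50 kb they were 33.3% (24.7% to 43.2%) and 44.3% (35.2% to 53.8%). The intervals overlap at both distances, and overlap of intervals is no test of the difference. In the upper 50% at 30-33 h the order was the reverse and the intervals were apart, with 77 of 104 in clusters (74.0%, 64.9% to 81.5%) and 56 of 104 isolated ones (53.8%, 44.3% to 63.1%). At 10-11 h the intervals of clustered and isolated regions overlapped in both parts of the list, with 35.3% (23.6% to 49.0%) and 28.6% (21.7% to 36.5%) in the lower 50% and 78.5% (69.1% to 85.6%) and 73.3% (64.2% to 80.9%) in the upper 50%.

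To follow gain and loss of single regions, overlapping regions of the 2 lists were merged into 702 sites, and sites 20 kb or less apart were joined into 429 loci. Gain here means a site listed at 30-33 h only and loss a site listed at 10-11 h only. Of all sites, 252 (35.9%) were found at both times, 223 (31.8%) were gained and 227 (32.3%) were lost. In the 315 loci of 1 site, 31.1% (26.3% to 36.4%) were found at both times, 33.0% (28.1% to 38.4%) were gained and 35.9% (30.8% to 41.3%) were lost. In the 55 loci of 3 or more sites gained sites outnumbered lost ones, 89 against 68, with overlapping intervals: of their 269 sites, 41.6% (35.9% to 47.6%) were found at both times, 33.1% (27.7% to 38.9%) were gained and 25.3% (20.5% to 30.8%) were lost.

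Most loci of 3 or more sites held kept sites beside gained or lost ones. Over all 702 sites, 35.9% were kept, 31.8% gained and 32.3% lost, so a locus of several sites would often be mixed from these shares alone. How often was not computed, and the counts below are descriptions. Of the 55 loci of 3 or more sites, 46 had at least 1 site found at both times, and 1 had all its sites at both times. Gain and loss occurred together in 27 loci, gain alone in 17 and loss alone in 10. In 8 loci a single site differed while all others were kept, with 4 gains and 4 losses. Among the 20 loci of 5 or more sites, 15 had both gain and loss, 4 gain alone and 1 loss alone.

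Gained and lost sites lay both outside and between kept sites. In loci with 2 or more kept sites, 18 gained sites lay outside the outermost kept ones and 22 between them, and 17 lost sites lay outside and 20 between. A further 34 gained and 15 lost sites were in loci with 1 kept site, where none can lie between, and 15 gained and 16 lost sites were in loci without any. The median distance to the nearest kept site was 4042 bp for gained sites and 3578 bp for lost sites. The gained and lost sites were weak for their lists, with a median percentile of 37.1 for gained and 34.4 for lost ones, while kept sites in the same loci had medians of 76.4 at 30-33 h and 77.9 at 10-11 h. Sites in the upper 10% of their list numbered 5 among the gained and 1 among the lost.

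The largest locus, on 3L at 17940309 to 18031396, spanned 91088 bp with 23 regions at 30-33 h and 25 at 10-11 h. They formed 29 sites, of which 16 were found at both times, 6 were gained and 7 were lost. A left and a right stretch held many of its highest ranks. In the left one, 17957409 to 17958996 stood at percentile 99.6 at 30-33 h and 99.4 at 10-11 h, and 17961462 to 17962696 at 96.4 at 30-33 h and 97.5 at 10-11 h. Next to them 17964062 to 17966843 was parted at 30-33 h into regions of 935 bp and 1535 bp, of ranks 10 and 4, and was a single region of 2735 bp and rank 2 at 10-11 h. The left stretch was thus near the top of both lists.

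The right stretch ranked higher and was wider at the later time. The site 17997562 to 17999996 stood at percentile 99.8 with 2435 bp at 30-33 h, against 94.8 with 835 bp at 10-11 h. At 18000609 to 18002996 a single region of 2335 bp and rank 6 at 30-33 h stood against 2 regions of 435 bp and 835 bp, of ranks 282 and 57, at 10-11 h. Likewise, at 18004609 to 18006996 a region of 2035 bp and rank 15 at 30-33 h stood against 2 regions of 1135 bp and 635 bp, of ranks 45 and 114, at 10-11 h. Here 1 late region overlapped 2 early ones, the reverse of the left stretch.

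Between these stretches single sites came and went. The strongest gain of the whole comparison, 17979162 to 17980196, stood at percentile 99.2 with 1035 bp at 30-33 h. It was preceded by a weak gained site at 17978262 to 17978496, of percentile 27.5, and followed by a site found at both times, 17981309 to 17983596, with 2235 bp at each time and percentile 84.9 at 30-33 h against 62.4 at 10-11 h. The site 17986562 to 17987496 stood at 95.6 with 935 bp at 30-33 h and at 44.6 with 335 bp at 10-11 h. A lost site followed at 17988609 to 17989243, of percentile 57.3, and then a pair of sites that ranked lower later: 17992709 to 17993543 stood at 34.6 at 30-33 h against 82.8 at 10-11 h, and 17994209 to 17995143 at 64.2 at 30-33 h against 82.6 at 10-11 h. Standing therefore shifted in opposite directions within a few kilobases.

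Gains and losses toward the ends of this locus lay below percentile 80 of their lists. On the left, sites at 17940309 to 17940643 and 17955709 to 17957243 were lost, of percentile 39.8 and 75.7, and a site of percentile 5.03 was gained at 17949662 to 17949896. The larger of the lost sites, 1535 bp wide, adjoined the strong site at 17957409. On the right, 18014062 to 18014696 and 18015062 to 18016096 were gained, of percentile 66.2 and 36.5, while 18012209 to 18012443 and 18022709 to 18023043 were lost, of percentile 20.3 and 50.8. The last site, 18030062 to 18031396, was kept at 89.5 at 30-33 h and 89.8 at 10-11 h.

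**Figure D4:**
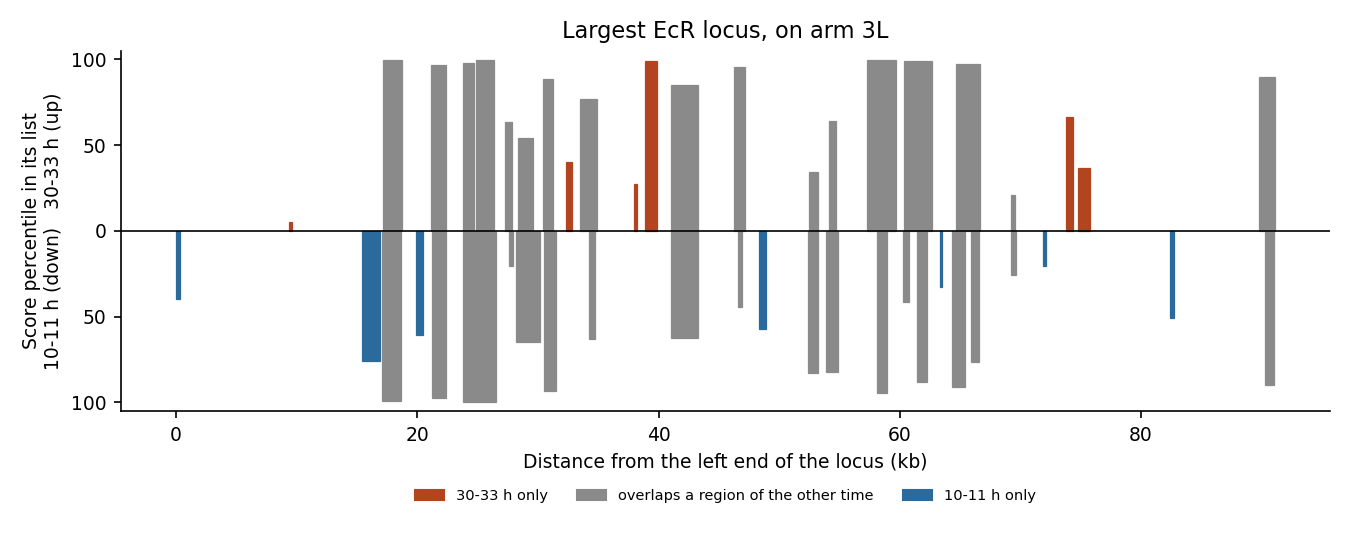
Every EcR region of the largest locus by distance from its left end in kb (x axis, bars drawn to their width) with the score percentile in its own list as bar height, upward for 30-33 h and downward for 10-11 h. Gray bars overlap a region of the other time; the gained region near 39 kb stands at percentile 99.2.

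A second locus lay 26365 bp to the right on 3L, at 18057762 to 18076396, and was listed almost wholly at the later time. It had 5 regions at 30-33 h and 1 at 10-11 h. Its only site of both times was 3235 bp wide at percentile 94.5 at 30-33 h, against 135 bp at percentile 18.9 at 10-11 h. Of the 4 gained sites, 18074962 to 18075696 stood at 93.5 and 18057762 to 18058396 at 68.6, and the rest at 23.9 and 17.6. No site was lost there. The locus on 2R at 2388949 to 2419046 also had 5 regions at 30-33 h and 1 at 10-11 h, but its kept site was strong at both times, at percentile 97.3 with 735 bp at 30-33 h and 92.3 with 735 bp at 10-11 h. The 4 gained sites lay to 1 side of it and stood between 6.08 and 58.5.

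The locus on X at 1835587 to 1874346, second in number of regions, had 11 regions at each time, in 12 sites, of which 8 were kept, 2 gained and 2 lost. Its left part was kept whole. The sites 1840787 to 1843146 and 1843712 to 1847446 stood at 94.3 and 97.7 at 30-33 h, against 96.1 and 97.7 at 10-11 h. The site 1837012 to 1840046 was parted into 2 regions of 1535 bp and 635 bp at 30-33 h and was 1 region of 3035 bp at 10-11 h. The right part changed more: the gained sites stood at 33.1 and 45.1 and the lost ones at 10.8 and 28.2, and the largest upward difference of all pairs, at 1869787 to 1870621, lay among them.

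Loss outnumbered gain in a locus on 3L at 5604709 to 5630096. It had 6 regions at 30-33 h and 9 at 10-11 h, in 10 sites, with 5 kept, 1 gained and 4 lost. The 4 lost sites ranked in the upper 50%, at percentiles 67.8, 92.9, 74.3 and 81.5 from left to right, and 3 of them followed one another without a kept site between. The next site to the right, 5625962 to 5627896, stood at percentile 98.7 with 1935 bp at 30-33 h against 61.6 with 535 bp at 10-11 h. A locus on 2L at 5287814 to 5307075 had 4 regions at 30-33 h and 6 at 10-11 h, with 3 kept, 1 gained and 3 lost sites. Its strongest site was kept, at rank 13 with 1735 bp at 30-33 h and rank 6 with 2035 bp at 10-11 h, and the lost sites stood at 1.04, 74.1 and 32.2.

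The remaining loci differed in the strength of the sites exchanged. On 2R at 6098512 to 6126683, all 6 regions of 30-33 h had a counterpart among the 8 regions of 10-11 h, and the 2 lost sites stood at percentiles 55.6 and 29.3. On 3R at 9615403 to 9653839, with 6 regions at each time, 3 sites were kept, 3 gained and 3 lost. The gained ones stood at 9.22, 6.92 and 69.2 and the lost ones at 44.0, 10.4 and 12.7. On 2R at 2007412 to 2046946, with 6 regions at 30-33 h and 5 at 10-11 h, the strongest gained sites ranked far above the lost ones: they stood at 31.7, 89.1 and 93.9, while the 2 lost sites stood at 7.26 and 1.66. Away from clusters, 104 loci held a single region of 30-33 h and 113 a single region of 10-11 h.

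**Figure D5:**
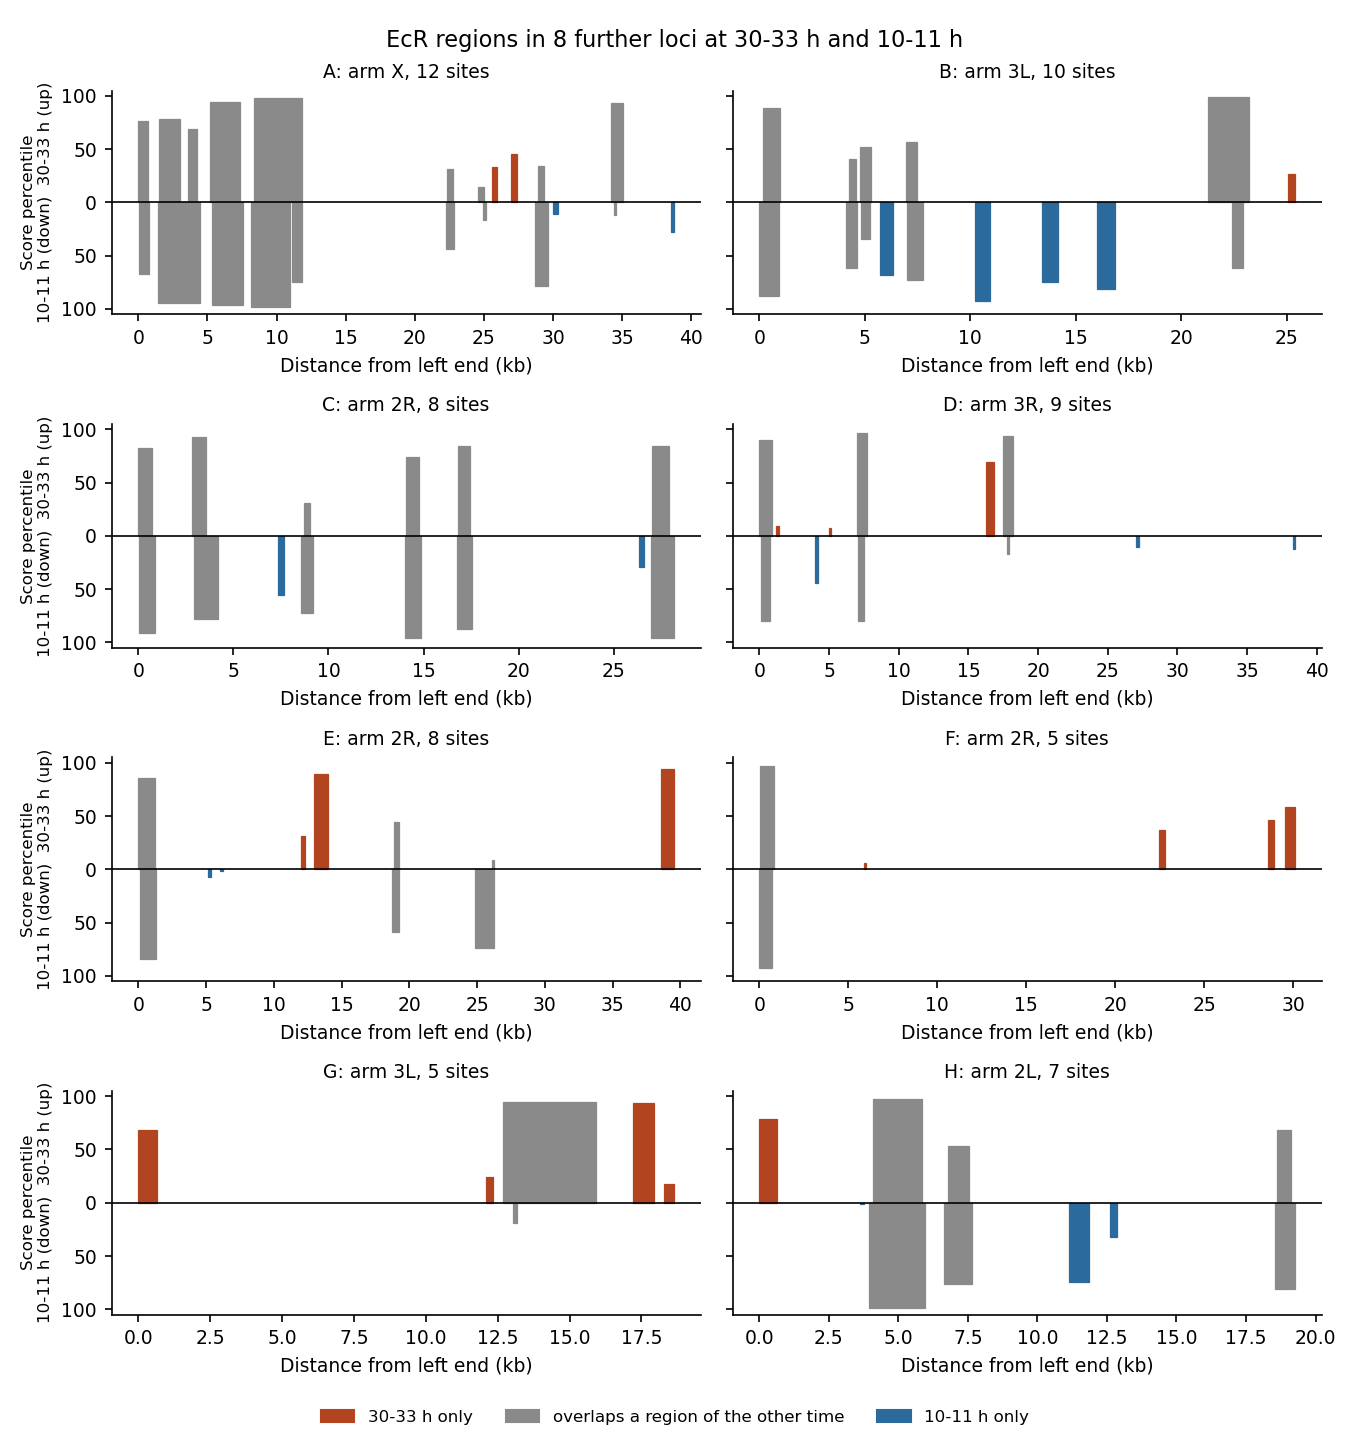
EcR regions in 8 further loci (A to H), plotted by distance from the left end in kb with the score percentile as bar height, upward for 30-33 h and downward for 10-11 h; gray bars overlap a region of the other time. Panels F and G hold 5 regions at 30-33 h and 1 at 10-11 h each, and panel B holds 6 regions at 30-33 h and 9 at 10-11 h with 4 lost sites.

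Clustered EcR regions met the histone deacetylase HDAC3 less often than isolated ones. This enzyme was mapped in embryos of 0 to 12 h. In its 2 lists HDAC3 overlapped 2.92% (1.26% to 6.66%) and 4.09% (2.00% to 8.21%) of the EcR regions in clusters at 30-33 h, against 23.4% (18.5% to 29.2%) and 24.7% (19.6% to 30.5%) of the isolated ones. At 10-11 h the shares were 4.86% (2.37% to 9.69%) and 5.56% (2.84% to 10.6%) in clusters, against 24.9% (19.9% to 30.7%) and 25.7% (20.6% to 31.5%) for isolated regions. Over all EcR regions the HDAC3 shares were 14.9% and 15.5% at 30-33 h and 16.4% and 17.0% at 10-11 h. For HDAC1 the shares were closer: at 30-33 h its 2 lists overlapped 26.3% (20.3% to 33.4%) and 45.6% (38.3% to 53.1%) of the regions in clusters, against 34.3% (28.6% to 40.5%) and 48.5% (42.3% to 54.8%) of the isolated ones. The first list of the deacetylase HDAC4a overlapped 12.9% (8.65% to 18.7%) in clusters against 23.4% (18.5% to 29.2%) at 30-33 h, with overlapping intervals. At 30-33 h higher shares in clusters were found only for Caudal, in 0-4 h embryos (18.7% against 14.6%) and L3 larvae (8.77% against 2.51%). The regions in clusters were the wider ones, as given above.

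Regions with a counterpart met other proteins more often than regions without in 14 of the 16 other lists at 30-33 h and in 16 at 10-11 h, with intervals apart in 8 lists at 30-33 h and in 5 at 10-11 h. The order was reversed at 30-33 h for HDAC4a list 1 (15.7% with and 21.5% without) and list 2 of the deacetylase HDAC11 (3.14% with and 5.38% without). Several lists map the same protein, so they are not separate observations. The insulator protein CTCF, in the first of its lists from S2 cells, an embryo-derived line, overlapped 25.9% (20.9% to 31.6%) of the regions with a counterpart and 13.9% (9.97% to 19.1%) of those without at 30-33 h. At 10-11 h it overlapped 25.8% (20.8% to 31.5%) with and 10.1% (6.85% to 14.7%) without. Since regions with a counterpart were wider (medians of 535 bp with and 335 bp without, at each time), regions of 235 to 535 bp were also compared. There the share was higher with a counterpart in 13 lists at 30-33 h and in 15 at 10-11 h, with intervals apart in 5 lists at each time. In its first list CTCF overlapped 29.0% (21.9% to 37.3%) with and 11.3% (7.06% to 17.5%) without at 30-33 h, and 30.2% (22.6% to 39.1%) with and 11.5% (7.38% to 17.4%) without at 10-11 h. In its second list it overlapped 21 of 131 regions with (10.7% to 23.3%) and 10 of 142 without (3.87% to 12.5%) at 30-33 h, and those intervals overlap. HDAC1 list 2 overlapped 61.8% (53.3% to 69.7%) with and 40.8% (33.1% to 49.1%) without at 30-33 h. HDAC1 list 1 overlapped 38.2% (30.3% to 46.7%) with and 26.1% (19.5% to 33.8%) without at 30-33 h, and those intervals overlap.

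The Caudal list of adult females, made with the same antibody against GFP, was also compared. It overlapped 19.7% (15.0% to 25.4%) of the regions of 30-33 h without a counterpart and 31.3% (25.6% to 37.6%) of those of 10-11 h without one. For regions with a counterpart the shares were 34.1% (28.6% to 40.1%) at 30-33 h and 35.2% (29.6% to 41.2%) at 10-11 h. At 235 to 535 bp the shares without a counterpart were 19.7% at 30-33 h, with an upper bound of 27.0%, and 33.1% at 10-11 h, with a lower bound of 26.2%, so the intervals overlap. The Caudal list of L3 larvae, also made with this antibody and cut from a density track like the EcR lists, overlapped few EcR regions of 1 time only. It met 2 of the 223 regions of 30-33 h and 2 of the 227 of 10-11 h without a counterpart, against 21 of 255 at 30-33 h and 23 of 256 at 10-11 h with one. At 235 to 535 bp it met 1 of 142 regions without and 4 of 131 with a counterpart at 30-33 h, and 1 of 157 without and 3 of 116 with one at 10-11 h, and the intervals overlap. In the header of the larval list the track is named for EcR although the labels give Caudal, and this was not settled here.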

How the data were processed

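Per the labels' protocols, animals were raised at 25 C and fixed with 1.8% formaldehyde for 15 min. Per the series record, DNA was sequenced as 36 bp reads. Per the submitters' processing notes, coordinates are on BDGP release 5. Per the titles, the authors pooled 3 ChIP libraries per list. Per the file headers, the authors cut regions from a density track with count thresholds of 310.4 (30-33 h) and 169.4 (10-11 h), with gaps and runs both set to 100 bp. The deposited score has no stated scale. Its lowest value (8.32 at 30-33 h and 7.41 at 10-11 h) lies just above log2 of the threshold (8.28 at 30-33 h and 7.40 at 10-11 h), and it was used for ranks within a list. The aligner is not given in the sources used here.

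Overlap of 1 bp, chains of 20 kb and ranks were computed with Python 3.11.15, pandas 2.3.3 and scipy 1.17.1 and tested on simulated lists. Named regions were the 5 highest scores and the 5 highest without a counterpart per list, the 3 widest, the 5 largest rank changes in each direction, and the loci with most regions, gains or losses. With 1 list per time no test between times was made. Alternatives are listed in the closing section. Members, clusters and lists were chosen with earlier results of these data known. No sequence of release 5 was at hand, so none is shown. Regions off the arms were left out of the comparison.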

Additional observations from a re-analysis of the deposited data

How the results depend on the processing

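Of 96 recomputed values for 22 results, 80 stayed within the main interval, or within 1.5 times of a count or correlation, and 16 did not. Counting a counterpart only with midpoints within 250 bp gave 48.7% of the 30-33 h list and 48.2% of the 10-11 h list. In clusters it gave 48.0% at 30-33 h and 50.7% at 10-11 h, and in the upper 25% by score 63.3% at 30-33 h and 81.0% at 10-11 h. With the upper 50% of each list by score, median widths were 635 bp at both times, clusters of 3 or more numbered 17 at 30-33 h and 13 at 10-11 h, 31.4% of the 30-33 h regions were in clusters, and 66.7% of these had a counterpart. This setting has fewer regions by construction, and the cause of the other shifts was not tested. A joining distance of 10 kb put 25.7% of the 30-33 h list and 24.0% of the 10-11 h list in clusters, and 50 kb put 46.2% of the 30-33 h list and 41.4% of the 10-11 h list. Leaving out the densest segment (3L 17.9 to 18.1 Mb, with 29 regions at 30-33 h and 26 at 10-11 h) gave 31.8% at 30-33 h and 26.0% at 10-11 h. Without it the HDAC3 share in clusters was 3.50% at 30-33 h and 5.88% at 10-11 h, and the share with a counterpart among weak regions in 30-33 h clusters was 27.1%. At 10-11 h the intervals of clustered and isolated shares with a counterpart overlap without it, as they do with a 10 kb joining distance, with all sequences and with midpoints. These intervals stay apart with a 50 kb joining distance, with overlap of 50% of the smaller region and with the upper 50% by score. The 1 kb distance, the upper 25%, the weak regions and the HDAC3 shares were added after seeing the data. No paired analysis was possible because each time has 1 pooled list. Depth per region is unknown, so weak binding below a threshold is not seen.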

Other observations

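Off the arms, the EcR lists held 5 regions at 30-33 h and 25 at 10-11 h. The 10-11 h list had 5 regions on the mitochondrial genome, with scores from 7.62 to 8.27, and the 30-33 h list had none. Unplaced sequence named Uextra held 4 regions at 30-33 h, with scores up to 10.2, and 11 at 10-11 h, with scores up to 9.59. The sequence named U held 6 regions, all at 10-11 h. Heterochromatic sequence of 2R held 1 region at 30-33 h and 2 at 10-11 h, and that of 3R 1 region at 10-11 h.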
